A study of Mus musculus with 12 samples.

Results

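The cells described here were the immune cells of the clone M tumour set against those of the clone EM3 tumour. They were all cells of the CD45 libraries of these tumours, CD45 being the surface protein that leukocytes carry, once called doublets were left out. The M library held 7521 such cells and the EM3 library 10924, together 18445 of the 54369 cells in the 6 CD45 libraries and of the 114135 cells in all 12 libraries of the series. Each cell kept the class that the authors deposited for it.

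The tumours grew from 4T1, a mouse mammary carcinoma line used as a model of triple-negative breast cancer. The series holds 6 tumours, from 5 lines each grown out of a single 4T1 cell (E, EM1, EM2, EM3 and M) and from parental 4T1, and it asks how immune cells vary with the place of a tumour between epithelial and mesenchymal. Every host was a female BALB/c mouse of 9 to 11 weeks with an intact immune system, the cells were implanted in the mammary fat pad, and the labels name no treatment. Each tumour was digested with collagenase and hyaluronidase, freed of red cells and sorted on CD45 magnetic beads, and a Total library without the sort was made as well. With 1 tumour a clone and 1 clone a state there is no replicate. No p-value could be given, and a difference between M and EM3 cannot be told apart from a difference between 2 mice or 2 captures. All intervals below are 95% intervals that cover counting error only. They are exact, except that the interval of a difference of shares was combined from the exact intervals of both shares.

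Granulocytes, mostly neutrophils in a tumour, accumulate in 4T1 disease and carry few RNA molecules per cell. Macrophages take up debris, present antigen on MHC class II molecules and secrete chemokines, and their gene programmes shift with signals such as interferon-gamma and colony-stimulating factors. CD8 T cells kill through perforin and granzymes, CD4 T cells help or, when they carry Foxp3, restrain the response, and dendritic cells carry antigen to both.

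The label of the clones as the most mesenchymal was set beside a score of their annotated tumour cells. Levels were taken as CPM, the count of a gene's unique molecular identifiers (UMIs) scaled to 1e+06 in total. The mean of log2(CPM + 10) over 13 epithelial genes was subtracted from that over 12 mesenchymal genes, and this EMT score was 3.32 in EM3 and 2.50 in M. It was 1.85 in EM2, 1.17 in EM1, 0.86 in the parental tumour and -2.19 in E. EM3 thus scored above M, and both above the other 4 tumours. Both gene lists were chosen with earlier results of these data known, so the score is no independent check of the label.

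The deposited M library held 28158955 UMIs with a median of 1557 UMIs and 837 genes per cell, and the EM3 library 57116299 UMIs with medians of 3453 and 1673. Macrophages had nearly the same median depth on both sides, 7664 and 7590 UMIs, while granulocytes had 989 and 1220. The fewest genes in any cell were 251 in M and 300 in EM3, and the median mitochondrial share was 0.169% and 0.209%. Barcodes were checked for overlap. The M library shared 116 whole barcodes with the EM3 library, 60 to 122 droplet barcodes with libraries of other tumours and 1450 with the Total library of its own tumour. The EM3 library shared 1760 droplet barcodes with the E Total library, 1640 with the E CD45 library and 1345 with its own Total library, against 107 to 202 with the rest. Capture and clone cannot be told apart here. Between 0.907% and 0.974% of cells were called doublets, and of the class deposited as T/Myeloid hybrids 37 of 74 cells in M and 71 of 198 in EM3 were among them.

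Granulocytes made up a larger share of the immune cells in the M tumour, and macrophages, dendritic cells and T cells a smaller one. In M 3792 of 7521 cells, or 50.4% (49.3 to 51.6), were granulocytes. In EM3 2963 of 10924, or 27.1% (26.3 to 28.0), were. The difference was 23.3 percentage points (21.9 to 24.7), and the other 4 CD45 libraries held 11.8% to 24.7%, so M was the highest of the 6 and EM3 the next. In the Total libraries of the same tumours granulocytes were 48.2% of the immune cells in M and 18.8% in EM3, a difference of 29.4 points (27.9 to 30.8). The fewest genes in any deposited Total cell were 451 in M and 550 in EM3. What part these unlike minima have in the Total shares was not tested. The size of the difference in the CD45 libraries moved with the depth of the cells kept. Among cells with at least 650 genes it was 6.42 points. The median granulocyte had 563 genes in M and 683 in EM3, so the limit left out many of them in both libraries.

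Macrophages were 33.7% (32.7 to 34.8) of the M cells and 46.7% (45.8 to 47.7) of the EM3 cells, a difference of -13.0 points (-14.4 to -11.6), which shrank to -0.604 points among cells with at least 650 genes. Other myeloid cells, a class that the authors named no further, were 3.75% and 4.90%, and this difference of -1.15 points (-1.74 to -0.545) turned to 0.383 with at least 650 genes. T cells were 9.12% and 15.7%, a difference of -6.63 points (-7.58 to -5.68). Dendritic cells were 1.28% (1.03 to 1.56) and 2.83% (2.53 to 3.16), with M below the 2.35% to 3.91% of the other 4 libraries. Natural killer (NK) cells were 0.652% and 0.641%, with an interval of the difference from -0.228 to 0.263 points. B cells were 0.558% and 0.851%, and both tumours lay below the 2.57% to 7.69% of the others.

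Shares sum to a whole, so each was taken again over the 3729 M cells and 7961 EM3 cells that were not granulocytes. Macrophages then stood on the other side: 68.0% (66.5 to 69.5) in M against 64.1% (63.1 to 65.2) in EM3, a difference of 3.90 points (2.04 to 5.73). T cells kept a lower share in M, 18.4% against 21.6%, a difference of -3.22 points (-4.76 to -1.66). Dendritic cells did too, with 2.57% against 3.88%, or -1.31 points (-1.97 to -0.611), but over cells that a second deposited label also calls dendritic the difference was -0.0264 points. NK cells were 1.31% and 0.879%, or 0.435 points higher in M (0.0237 to 0.897), and B cells were 1.13% and 1.17%.

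These shares without granulocytes did not hold in the Total libraries, which were compared at 1 coarser level that both annotations share. There macrophages and other myeloid cells together were 7.20 points lower in M (-9.02 to -5.38) after being 4.35 points higher (2.63 to 6.04) in the CD45 libraries. T and NK cells together were 5.97 points higher (4.23 to 7.71) after being 2.95 points lower, and dendritic cells 0.419 points higher (-0.211 to 1.07) after being 1.34 lower. With granulocytes counted, both kinds of library had fewer macrophages and fewer T and NK cells in M. Only the direction for granulocytes, macrophages, dendritic cells and T and NK cells as shares of all immune cells was therefore common to both libraries of each tumour. For dendritic cells the Total difference was small, -0.414 points, and its interval of -0.839 to -0.00144 nearly reached 0.

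**Figure D1:**
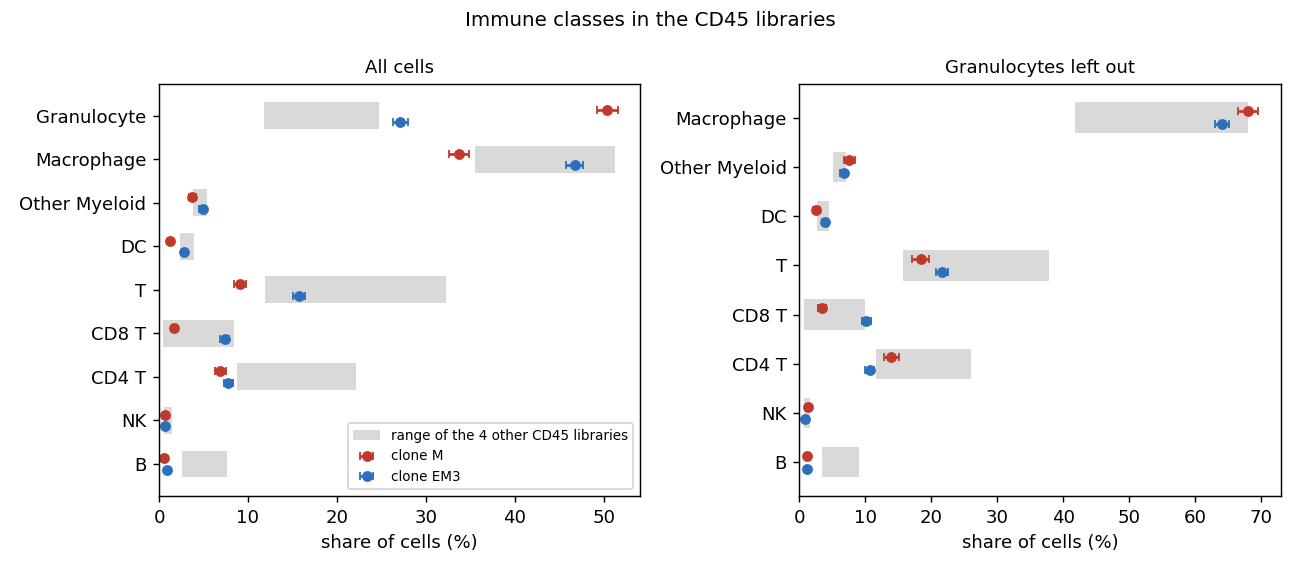
Share of cells in each deposited class, in percent, for the clone M and EM3 CD45 libraries, of all cells (left) and of cells other than granulocytes (right). Points are the 2 libraries with exact 95% counting intervals and grey bars span the other 4 CD45 libraries; granulocytes are 50.4% in M and 27.1% in EM3, and macrophages change sides between the panels.

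CD8 T cells were 18.8% (15.95 to 21.9) of the 686 T cells in M and 46.9% (44.5 to 49.3) of the 1721 in EM3, a difference of -28.1 points (-31.8 to -24.2). EM3 was the highest of the 6 tumours, since the other 4 held 4.12% to 41.8%. CD4 T cells were 75.7% and 49.3%. The difference in CD8 cells also stood in every denominator tried: -5.67 points of all cells, -6.68 points of cells other than granulocytes, and -5.74 and -6.72 points in the same order among cells with at least 650 genes. All of these kept the deposited subtype labels, whose limits are given below. CD4 T cells were 0.871 points lower in M of all cells (-1.64 to -0.0960), 1.04 points higher with at least 650 genes, and 3.25 points higher (1.95 to 4.59) without granulocytes.

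The lower CD8 share lay mostly in the class that the authors named for Lef1, a transcription factor of naive and memory-like T cells. Lef1+ CD8 cells were 66 of 686 T cells in M (9.62%) and 496 of 1721 in EM3 (28.8%), while the other 4 libraries held 3.12% to 10.7%, so EM3 stood above all 5 others. Gzmb+ CD8 cells, named for granzyme B, were 63 (9.18%) and 311 (18.1%), inside the 0.999% to 31.1% of the others. Of the CD8 cells alone, the Gzmb+ class was 48.8% in M and 38.5% in EM3, a difference of 10.3 points (0.754 to 19.9).

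On the CD4 side, Cd44+ cells, which have met antigen, were 40.8% of T cells in M and 24.6% in EM3, and both exceeded the 14.0% to 19.1% of the other 4 libraries. Foxp3+ cells, the regulatory T cells, were 28.6% and 21.1%, also above the 6.97% to 11.6% of the others. Cd44- CD4 cells were 6.27% and 3.60%, far below the 22.6% to 67.5% of the others. The 2 mesenchymal tumours were thus alike in having few Cd44- and many Foxp3+ cells. Foxp3+ cells as a share of CD4 cells were 37.8% in M and 42.8% in EM3, with an interval of the difference from -10.4 to 0.485 points. Trdc+ cells, named for a chain of the gamma-delta T cell receptor, were 25 cells (3.64%) in M and 6 (0.349%) in EM3, a difference of 3.30 points (1.96 to 5.00), with 0.727% to 1.32% in the others. The classes did not carry their labels equally in both tumours. In Gzmb+ CD8 cells Cd4 had 28.45 CPM in M and 339 in EM3, and in Lef1+ CD8 cells 0 and 132. In the Cd44- class, counted here as CD4, Cd8a and Cd8b1 summed to 674 and 534 CPM. Over all T cells the same markers summed to 245 and 799. What part the labels have in the CD8 and CD4 shares was not tested.

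**Figure D2:**
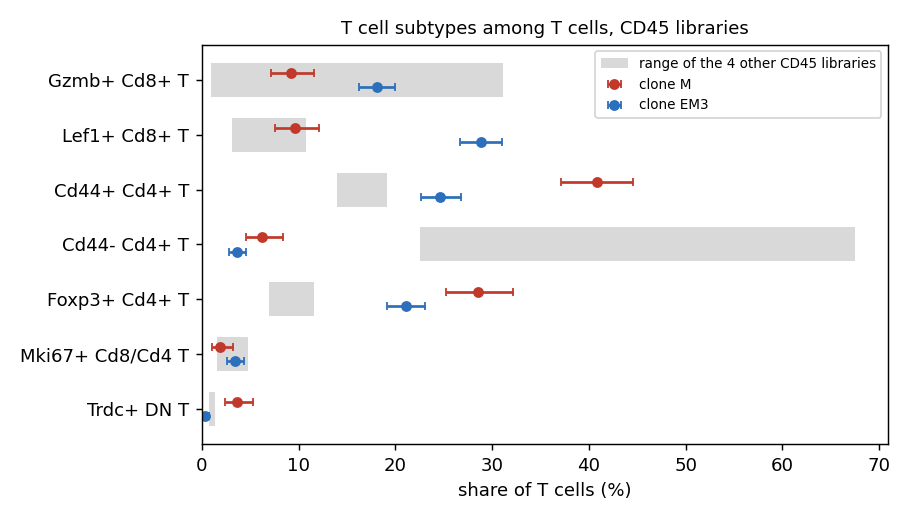
Share of each deposited T cell subtype among T cells, in percent, in the clone M (686 cells) and EM3 (1721 cells) CD45 libraries. Points carry exact 95% counting intervals and grey bars span the other 4 CD45 libraries; Lef1+ CD8 cells are 9.62% in M and 28.8% in EM3, and Cd44+ CD4 cells 40.8% and 24.6%.

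For gene levels, the UMIs of all cells in a class were added up for each library and given as CPM. A gene was compared where it reached 50 CPM on either side, and counted as different where log2 of the ratio of (CPM + 10) was at least 1 either way, that is 2-fold. For NK, B and the T cell subtypes the exact Poisson intervals of both levels also had to be apart, because the fold alone picked 1117 genes in NK cells (19.8%) and 1422 in B cells (24.1%), and 121 and 86 once the intervals had to be apart. In the 5 larger classes the second condition removed no gene. Where 1 side had 0 UMIs, the fold was taken against a floor of 3 counts in that library, which leaves out the counting error of the other side, and the lower limit of the exact interval is given beside it. The 12 classes and subtypes compared had at least 30 cells in both libraries. The deposited subtypes split neither macrophages nor dendritic cells in these libraries.

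Granulocytes of the M tumour had more RNA of Tnf, Icam1 and Gpr84, and less of MHC class II genes and of Arg1. Of 2946 genes compared, 128 differed at least 2-fold (4.34%), 56 higher in M (1.90%) and 72 lower (2.44%). This split depended on the scaling: with TMM factors, which fit a library's scale to the bulk of its genes, it was 69 higher and 56 lower. All 128 had the same direction in the Total libraries and 71 were past 2-fold there too. The class carried its own markers on both sides: the 8 granulocyte markers summed to 139780 CPM in M and 163397 in EM3.

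Tnf, the tumour necrosis factor cytokine, had 340 CPM (323 to 358) in M granulocytes and 60.8 (53.6 to 68.6) in EM3 granulocytes, 5.60-fold (4.91 to 6.41) higher in M. M lay above the other 4 libraries (109 to 193) and EM3 below them. The Total libraries repeated it, with 334 and 54.5 CPM. Icam1, an adhesion molecule that binds leukocyte integrins, had 208 CPM (194 to 222) and 43.1 (37.1 to 49.8), again with M above and EM3 below the range of the others, 56.8 to 108. Gpr84, a receptor for medium-chain fatty acids, had 202 and 36.1 CPM. Ikbke, a kinase of the NF-kappaB and interferon pathways, had 131 and 28.4 CPM, and Tnip1, an inhibitor of NF-kappaB signalling, 353 and 120. Ltb, the lymphotoxin-beta chain, had 216 and 64.3 CPM, and Marcksl1, an actin-binding protein, 3871 and 1318. Treml4 (157 and 41.9 CPM), Gpc3 (79.6 and 18.2) and Igsf6 (474 and 161) completed the 10 genes with the highest ratio.

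Among the 10 genes with the lowest ratio, Mmp19, a matrix metalloproteinase, had 91.3 CPM (82.6 to 101) in M and 678 (654 to 703) in EM3, 7.43-fold lower. Tgm1, a transglutaminase, had 9.15 and 99.7 CPM. Its level in granulocytes was above that in macrophages of the same library, at 200% and 464% of it. Arg1, arginase, had 98.9 and 520 CPM, and the stress genes Hspa1a and Hspa1b, nearly identical copies whose counts may be shared, had 75.1 and 75.5 CPM in M against 412 and 412 in EM3. Cd74, the invariant chain of MHC class II, had 426 CPM (407 to 446) and 2090 (2047 to 2134). All 6 MHC class II genes compared were lower in M, beside 2.44% lower of all genes compared. Their median log2 ratio was -2.07 beside 0.03 over all genes compared, and -1.65 in the Total libraries. With TMM scaling 5 were compared and 5 were lower. H2-Aa, for example, had 288 and 1409 CPM. H2-Ab1 (149 and 681 CPM) and Fn1, fibronectin (255 and 1107), were also among the lowest ratios.

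Macrophage RNA moved with these lower genes. The 9 macrophage markers summed to 1735 CPM in M granulocytes and 2714 in EM3 granulocytes. Of the 72 genes lower in M, 39 (54.2%) were at least 5 times higher in macrophages than in granulocytes of both libraries, against 0 of the 56 genes higher in M and 2.61% of all genes compared. Cd74 in granulocytes was at 5.83% of its macrophage level in M and 15.7% in EM3, and Arg1 at 6.04% and 12.9%. What part macrophage RNA has in the MHC class II and Arg1 differences was not tested. Tnf and Icam1 were higher in granulocytes than in macrophages of the M library, at 458% and 234% of the macrophage level.

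Of 10 secondary and tertiary granule genes, which encode proteins that neutrophils store, 1 was past 2-fold, Mmp9, gelatinase B, with 1741 and 851 CPM. Over all genes compared 4.34% were, so this count cannot be set apart from that share. The median log2 ratio of the list was -0.53 beside 0.03 over all genes, and -0.71 in the Total libraries. Ltf, lactoferrin, had 290 and 584 CPM, both below the other 4 libraries (897 to 2399). Ngp, neutrophilic granule protein, had 1011 and 1865 CPM, again below the 2812 to 6657 of the others. None of the 5 primary granule genes, which mark precursors, reached 50 CPM in either library. Of 13 mature neutrophil genes 0 were past 2-fold, also near that share, with a median of -0.11.

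Among 17 genes of tumour neutrophils, Tnf, Icam1 and Spp1 were past 2-fold higher and Cxcl3 lower. Spp1, osteopontin, had 4128 and 1939 CPM, and the chemokine Cxcl3 355 and 979. Of 10 chemokine genes 5 were lower (4 with TMM scaling) and 0 higher, beside 2.44% lower of all genes compared, with a median of -0.63 beside 0.03. Cxcl2, which attracts neutrophils, did not pass, with 8355 and 7135 CPM, and neither did Ccl3, with 2352 and 1476. The 9 type I interferon genes and 9 MHC class I genes compared included 0 past 2-fold, a count near the share of 4.34% over all genes, with medians of -0.15 and -0.29.

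**Figure D3:**
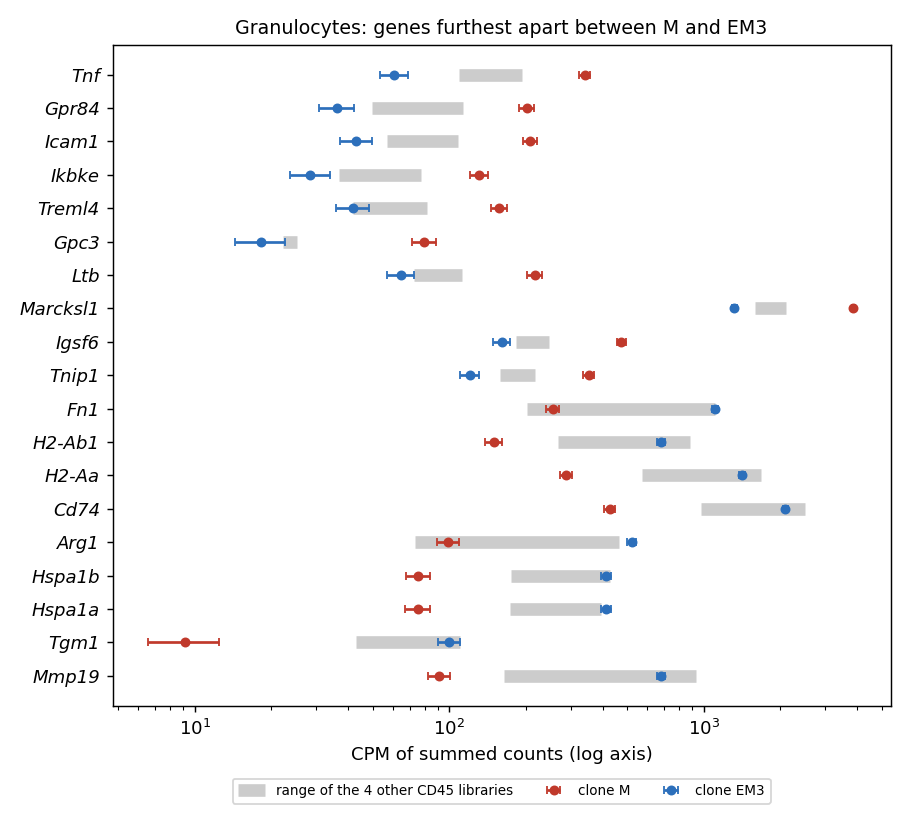
Levels in granulocytes of 19 of the 20 genes with the highest and lowest ratios, in CPM on a log axis, for the clone M and EM3 CD45 libraries. Points carry exact Poisson 95% intervals and grey bars span the other 4 CD45 libraries; Tnf is 340 CPM in M and 60.8 in EM3, and Mmp19 91.3 and 678.

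Macrophages of the M tumour had more RNA of Rcan1, Fcrls and Acp5, and less of Inhba, Pdcd1lg2, Cd274, Il1b and Cxcl9. Of 4182 genes compared, 117 differed at least 2-fold (2.80%), 43 higher (1.03%) and 74 lower (1.77%). TMM scaling moved the macrophage log2 ratios, before the pseudocount, by -0.25 and gave 18 higher and 134 lower, and centring on the median of all genes gave 29 and 97. All 117 kept their direction in the Total libraries and 67 were past 2-fold there. The 9 macrophage markers summed to 17316 CPM in M and 13494 in EM3, so both classes carried their label.

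Among the higher genes, Rcan1, a calcineurin inhibitor, had 184 CPM (178 to 190) in M and 46.9 (44.8 to 49.0) in EM3, 3.92-fold (3.71 to 4.14). The other 4 libraries lay between, at 50.1 to 117. Fcrls, an Fc receptor-like molecule of resident macrophages, had 992 and 346 CPM. Acp5, a lysosomal acid phosphatase, had 393 (385 to 402) and 120 (117 to 124), with the others at 216 to 325. Ada, adenosine deaminase, had 297 and 93.6 CPM, and Osgin1, induced by oxidative stress, 100.4 and 24.0. Cadm1 (137 and 36.4 CPM), Gramd1b (140 and 39.3), Gpr84 (121 and 33.0), Tmem86a (163 and 49.96) and Mylip (90.1 and 25.7) were the other five. Gpr84 was thus among the 10 highest ratios in both granulocytes and macrophages.

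Of 15 resident macrophage genes compared, 3 were past 2-fold higher in M and 0 lower, beside 1.03% and 1.77% of all genes compared, with a median of 0.58 beside 0.11 over all genes and 0.35 in the Total libraries. With TMM scaling 0 of the 15 passed, and the median was 0.35. The 3 were Folr2, a folate receptor, with 317 and 130 CPM, Ms4a7 with 427 and 184, and Gas6, a ligand of the Axl and Mertk receptors, with 334 and 159. Of the resident genes below 2-fold, Mrc1, the mannose receptor, had 1343 and 1400 CPM, C1qa 5548 and 4275, and Apoe, apolipoprotein E, 30894 and 24026. Of 7 monocyte genes compared 1 was higher and 1 lower, with a median of -0.57 that was 0.09 in the Total libraries. The higher one was F13a1, a coagulation factor subunit made by macrophages, with 698 and 297 CPM. With TMM scaling 0 of the monocyte genes were higher and 1 lower, with a median of -0.80. Of 9 lipid-handling genes 1 was past 2-fold, Abcg1, a cholesterol exporter, with 70.0 and 29.3 CPM, and it did not pass with TMM scaling.

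Pdcd1lg2, which encodes PD-L2, had 6.65 CPM (5.56 to 7.88) in M macrophages and 113 (110 to 116) in EM3 macrophages, 17.0-fold (14.3 to 20.4) lower. M lay below the other 4 libraries (13.8 to 192) and EM3 inside them. Cd274, which encodes PD-L1, had 109 and 393 CPM. In the Total libraries Pdcd1lg2 had 5.84 and 77.6 CPM and Cd274 101 and 313. Inhba, the subunit of activin A, had 120 CPM (115 to 125) and 874 (865 to 883), with the others at 292 to 2387, so M was the lowest of the 6. Akap5, a kinase anchor, had 5.09 and 81.8 CPM, and Ppp1r3b, a regulator of glycogen synthesis, 31.8 and 236. Mmp19 had 1273 and 5618 CPM, as it was lower in granulocytes too. Ptgs2, cyclooxygenase 2, had 196 and 850.

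Of 7 cytokine genes, 3 were lower in M past 2-fold and 0 higher, with a median of -0.71 (-0.95 with TMM scaling). Of all genes compared 1.77% were lower. Il6 had 12.1 CPM (10.6 to 13.7) and 87.3 (84.5 to 90.2), Il1b 1674 and 5272, and Il1a 235 and 556. Il10, an anti-inflammatory cytokine, stayed under 50 CPM on both sides and was not compared, with 33.7 and 12.9. Of 16 chemokines 4 were lower and 0 higher (6 and 0 with TMM scaling): Cxcl9, Cxcl2 (1914 and 4840 CPM), Cxcl3 (546 and 1483) and Ccl24 (261 and 630). Arg1, which consumes arginine, had 1638 (1620 to 1656) and 4033 (4014 to 4052), and Thbs1, thrombospondin, 3605 and 9047. M lay inside the range of the other 4 libraries for Arg1 (1298 to 3845) and EM3 above it.

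Of 10 interferon-gamma response genes, 5 were lower past 2-fold and 0 higher, with a median of -0.85. Cxcl9, a ligand of the chemokine receptor Cxcr3 on T cells, had 30.6 CPM (28.2 to 33.1) from 88 macrophages in M and 192 (188 to 196) from 912 in EM3. The guanylate-binding proteins Gbp2 and Gbp2b had 30.01 and 20.8 CPM in M and 82.8 and 58.1 in EM3. Of 6 MHC class II genes 4 were lower and 0 higher (median -1.05), among them H2-Aa with 3248 and 6675 CPM. Of 8 type I interferon genes 0 passed either way, beside 2.80% of all genes compared, and their median was 0.44 (0.22 with TMM scaling). Irf7, for instance, had 174 and 98.1 CPM.

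**Figure D4:**
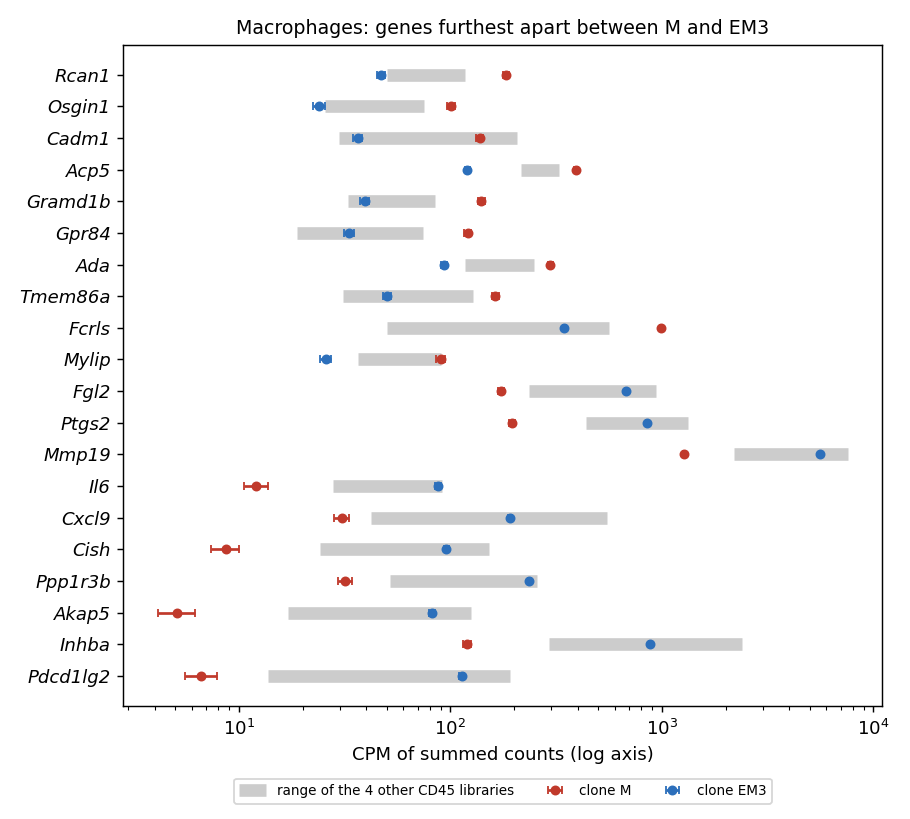
Levels in macrophages of the 20 genes with the highest and lowest ratios, in CPM on a log axis, for the clone M and EM3 CD45 libraries. Points carry exact Poisson 95% intervals and grey bars span the other 4 CD45 libraries; Rcan1 is 184 CPM in M and 46.9 in EM3, and Pdcd1lg2 6.65 and 113.

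Cish, which encodes a suppressor of cytokine signalling that is itself induced through Stat5, had 8.66 CPM (7.41 to 10.1) in M macrophages and 95.8 (92.9 to 98.8) in EM3 macrophages, with the others at 24.2 to 153. Fgl2, a secreted fibrinogen-like protein, had 174 and 674 CPM. Because these genes lay among the 10 lowest ratios, the promoters of the 20 genes of both directions were searched for TTCNNNGAA, the palindromic core bound by Stat factors, a motif chosen after these genes were seen. RefSeq promoters (GRCm38.p6, 250 bases before to 50 after the start) were matched for 16 of the 20. The motif reads the same on both strands and was present in 2 of 8 promoters of lower genes (25%), 1 of 8 of higher genes (12.5%) and 2288 of 27025 in the whole table (8.47%). These 3 promoters are shown because they are the matches, with the motif in capitals: Cish at chr9:107296409-107296708 (plus strand), with 2 copies, Fgl2 at chr5:21372423-21372722 (plus strand) and Ada at chr2:163750190-163750489 (minus strand). Cish was among the genes behind the choice of the motif and is 1 of the 2 lower genes with it. The shares are therefore no test of a difference between the sets, and a match is a description of letters only.
Cish: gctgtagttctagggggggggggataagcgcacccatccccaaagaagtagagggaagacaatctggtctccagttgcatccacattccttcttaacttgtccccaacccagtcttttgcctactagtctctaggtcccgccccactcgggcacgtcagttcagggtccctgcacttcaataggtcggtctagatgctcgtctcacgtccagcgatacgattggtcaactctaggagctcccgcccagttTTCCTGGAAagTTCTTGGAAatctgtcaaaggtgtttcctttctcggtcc
Fgl2: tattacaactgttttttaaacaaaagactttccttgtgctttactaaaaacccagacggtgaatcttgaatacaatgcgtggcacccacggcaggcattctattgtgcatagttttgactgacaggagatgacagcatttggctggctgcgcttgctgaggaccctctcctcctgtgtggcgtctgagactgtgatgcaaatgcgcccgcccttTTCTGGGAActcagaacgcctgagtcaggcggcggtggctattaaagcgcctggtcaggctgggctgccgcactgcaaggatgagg
Ada: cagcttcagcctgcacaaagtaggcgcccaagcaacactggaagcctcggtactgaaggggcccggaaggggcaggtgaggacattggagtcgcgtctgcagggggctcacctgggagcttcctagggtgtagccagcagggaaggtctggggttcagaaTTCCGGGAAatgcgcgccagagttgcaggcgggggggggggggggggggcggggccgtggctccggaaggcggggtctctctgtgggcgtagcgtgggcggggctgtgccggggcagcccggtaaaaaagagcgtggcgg

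Other myeloid cells, 282 in M and 535 in EM3, had 147 of 4633 genes past 2-fold (3.17%), 41 higher (0.885%) and 106 lower (2.29%), or 29 and 142 with TMM scaling. Ctsk, the bone-resorbing protease cathepsin K, had 6.79 CPM (3.39 to 12.2) in M and 788 (760 to 818) in EM3. The others had 401 to 3796, so M stood apart from all 5 tumours. In EM3 its UMIs came from 32 cells and in M from 8. Mmp9 had 40.8 and 607 CPM in this class, the reverse of its order in granulocytes, and Acp5, another gene of bone-resorbing cells, 304 and 660. Inhba had 2.47 and 228 CPM, Areg, an epidermal growth factor receptor ligand, 3.71 and 89.9, and Akap5 3.71 and 89.7. Among the higher genes, Gpr84 had 111 (95.5 to 129) and 17.4 (13.3 to 22.3), as in the other myeloid classes, Gdf3 55.0 and 6.44, and Dtx4 195 and 58.5. Cxcl10 (95.1 and 11.5 CPM) and Gpnmb (59.3 and 9.25) rested on few cells, since 1 cell gave 65.6% of the Cxcl10 UMIs and 75.0% of the Gpnmb UMIs in M.

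Dendritic cells, 96 in M and 309 in EM3, had 310 of 4209 genes past 2-fold (7.37%), 82 higher (1.95%) and 228 lower (5.42%), while the Total libraries had 93 higher and 101 lower. The makeup of this class differed. A second label in the deposited table, from the ImmGen reference, named 65 of the 96 M cells dendritic (67.7%) and 19 macrophages, but 139 of the 309 EM3 cells dendritic (45.0%) and 156 macrophages (50.5%). The 9 macrophage markers summed to 2180 CPM in M and 6683 in EM3, and the 8 dendritic markers to 15700 and 10489. Over cells that both labels call dendritic, the difference in share was -0.425 points of all cells and -0.0264 points without granulocytes, and 256 genes were past 2-fold.

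Chemokines were lower in M dendritic cells: 15 of 17 compared were past 2-fold lower and 0 higher, beside 5.42% lower of all genes compared, with a median of -1.74 beside -0.02 over all genes. The median was -1.01 over cells of both labels and -0.43 in the Total libraries. Ccl17, a ligand of Ccr4 on regulatory and helper T cells, had 196 CPM (161 to 236) and 1479 (1430 to 1529), and M lay below the 777 to 1687 of the others. The Total libraries repeated this with 204 and 1672. Ccl22, the other ligand of Ccr4, had 257 and 647 CPM here but 787 and 724 in the Total libraries. Inhba had 3 UMIs in M and 633 in EM3, a ratio of 51.1 (17.4 to 248). C4b, a complement factor, had 1 and 329 UMIs, but over cells of both labels its log2 ratio was -0.21. Thbs1 (291 and 2846 CPM) and Ngp (0 and 116, of which 1 cell gave 90.1%) were the other lowest ratios beside Slpi, a protease inhibitor, with 33.5 and 352, and both Thbs1 and Ngp changed sides in the Total libraries.

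The higher genes of M dendritic cells included Hic1, a transcriptional repressor, with 219 CPM (182 to 261) and 23.1 (17.3 to 30.1), above the 16.3 to 51.4 of the others. Herpud1, of the response to unfolded proteins, had 737 and 152 CPM, Rgs9 123 and 17.1, and N4bp2l1 194 and 40.5. Cd207, langerin, had 141 and 28.2 from 13 and 21 cells. Of 10 type I interferon genes 5 were higher and 0 lower, beside 1.95% higher of all genes compared, with a median of 0.98, which was -0.27 in the Total libraries. Irf7 had 386 and 99.0 CPM in the CD45 libraries and 161 and 162 in the Total libraries. Of the genes of dendritic subsets, 0 of 7 of type 1 passed (median 0.30), 0 were higher and 1 lower of 5 of type 2 (-0.77), and 1 was higher and 3 lower of 10 of the migratory state (0.16), beside 7.37% either way of all genes compared. In the Total libraries these medians were -0.91, 0.13 and 0.59, so those of type 1 and type 2 changed sign. Xcr1 had 148 (118 to 183) and 118 (105 to 133), and Clec9a 240 and 225, both genes of the cross-presenting type. Ccr7, the receptor for migration to lymph nodes, had 3155 and 1903 CPM. In the Total libraries 247 of the 310 genes kept their direction, 65 of them past 2-fold.

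T cells as a whole had 138 of 5167 genes past 2-fold (2.67%), 49 higher (0.948%) and 89 lower (1.72%). The Total libraries hold T and NK cells in a joint class, so all their values for T cells include NK cells. There 97 genes were higher and 72 lower, and 121 of the 138 kept their direction. The T cell markers summed to 5148 CPM in M and 5915 in EM3. Cd8a, a chain of the CD8 coreceptor, had 118 CPM (98.8 to 141) in M and 414 (393 to 436) in EM3, and Cd8b1 127 and 385. The Total libraries had 105 and 399 for Cd8a. Cd4 had 667 and 562. Nkg7, a cytotoxic granule protein, had 310 and 994, Prf1, perforin, 24.1 and 110, and Lag3, a checkpoint receptor, 136 and 342. CD8 cells were 18.8% of this class in M and 46.9% in EM3. What part this mix has in these levels was not tested.

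Egln3 and Epas1 were higher in M T cells and did not depend on single cells. Epas1, the hypoxia-inducible factor HIF-2alpha, had 1029 CPM (970 to 1092) and 302 (284 to 321), from 360 and 473 cells, with the others at 195 to 298. Egln3, a prolyl hydroxylase that targets such factors, had 441 (402 to 482) and 133 (121 to 145), from 177 and 227 cells. M was the highest of the 6 tumours for both. The Total libraries had 732 and 312 for Epas1 and 334 and 92.4 for Egln3. Mctp1, a calcium-binding membrane protein, had 62.0 CPM (48.1 to 78.8) from 57 cells and 2.58 (1.18 to 4.90) from 8, and 55.1 and 1.90 in the Total libraries.

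Some of the highest ratios in T cells came from single cells. All 165 UMIs of Il3 in M came from 1 cell, and without the cell of each library that held most of them its log2 ratio was -0.08. The same held for Il2, at 0.01, and for the granzyme gene Gzmc, at -0.39. Il17a, the cytokine of gamma-delta and helper T cells, had 132 and 4.59 CPM, 143 and 16 UMIs, and 52.4% of the M UMIs came from 1 cell. Il17f had 82 and 1 UMIs, with 53.7% from 1 cell. Of 12 helper T cell genes 6 were higher and 0 lower, beside 0.948% higher of all genes compared, with a median of 0.91 that was 0.21 in the Total libraries. Il5 had 373 and 147 CPM, and Il13 430 and 93.8, of which 1 cell gave 71.0%.

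Of the 89 genes lower in M T cells, 48 (53.9%) were at least 5 times higher in macrophages of both libraries, against 2.19% of all genes compared and 0 of the 49 higher genes. Mmp19, one of the lowest, had 38.9 and 430 CPM, which was 3.06% and 7.65% of its macrophage level, and Inhba had 6.48 and 86.4. The macrophage markers summed to 769 CPM in M T cells and 1573 in EM3 T cells. All 5 MHC class II genes compared were lower too, beside 1.72% lower of all genes compared, with a median of -2.08 beside 0.01 over all genes. What part macrophage RNA has in these differences was not tested. Hspa1a (22.2 and 439 CPM) and Hspa1b (48.1 and 523) were also among the lowest. Gzmf, with 25.9 and 206, changed sides in the joint T and NK class of the Total libraries (1281 and 649).

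Gzmb+ CD8 cells of the M tumour had more RNA of Tcf7, Klf2 and Cxcr3 and less of Prf1, Lag3 and Tox. The class summed 63 cells and 105436 UMIs in M and 311 cells and 776582 UMIs in EM3, so many M levels rest on few UMIs. The Lef1+ CD8 class of M also carried more Gzmb than Lef1 RNA, as given below. What part an unlike split between the CD8 classes has in these levels was not tested. Of 5451 genes compared, 331 were past 2-fold with intervals apart (6.07%), 157 higher (2.88%) and 174 lower (3.19%), or 106 and 222 with TMM scaling. Of the lower genes 27 (15.5%) were at least 5 times higher in macrophages, against 2.22% of all genes compared, and macrophage markers summed to 711 and 1203 CPM. Gzmb itself had 835 CPM (669 to 1028) and 574 (522 to 630), and both were below the 837 to 2184 of the others. The CD8 markers summed to 1034 and 1800 CPM and Cd4 to 28.4 (5.87 to 83.2) and 339 (299 to 382). The EM3 class thus carried Cd4 RNA as well.

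Of 11 naive and memory genes 6 were higher and 0 lower, beside 2.88% higher of all genes compared, with a median of 1.53 beside 0.06 over all genes. Tcf7, a transcription factor of memory-like T cells, had 180 CPM (109 to 281) in M and 25.7 (15.7 to 39.8) in EM3, with the others at 0 to 82.1. Klf2, which keeps T cells in circulation, had 939 and 118, and S1pr1, the receptor for leaving tissue, 123 and 18.03. Lef1 had 75.9 and 5.15. Cxcr3, the receptor for Cxcl9, had 360 CPM (255 to 495) from 19 cells and 15.5 (7.98 to 27.0) from 8 cells, a ratio of 23.3 (11.9 to 49.0). It was at 11.9 to 142 in the others. Ly6c2 and Ly6c1, surface proteins of memory CD8 cells, had 237 and 209 CPM in M and 11.6 and 10.3 in EM3, Dtx4 360 and 32.2, and Tnfsf8, the CD30 ligand, 275 and 18.03.

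Prf1 had 47.4 CPM (15.4 to 111) in M and 380 (338 to 426) in EM3, and M lay below the 153 to 485 of the others. Lag3 had 351 and 1011 CPM, Tox, a transcription factor of exhausted T cells, 47.4 and 185, and Entpd1, an ectonucleotidase, 75.9 and 251. Pdcd1, which encodes PD-1, did not pass, with 2409 and 3233. Of 7 checkpoint genes 3 were lower and 0 higher with intervals apart (median -0.93). Of 13 cytotoxic genes 3 were higher and 3 lower. Of all genes compared 2.88% were higher and 3.19% lower. Gzmd had 1 and 310 UMIs, a ratio of 42.1 (7.499 to 1668), and Gzme 1 and 194, a ratio of 26.3 (4.67 to 1046). Gzmf, their neighbour in the granzyme family, had 247 and 722 CPM, but 92.3% of its M UMIs came from 1 cell. Gzmk, a granzyme of memory cells, had 209 and 48.9 CPM. Hspa1b, with 0 and 422 UMIs, was at least 19.1-fold lower in M against the floor (exact lower limit 15.5), and Galnt18, with 0 and 93, at least 4.21-fold (3.36). Hspa1a had 2 and 318 UMIs, a ratio of 21.6 (5.93 to 179). Irf8 had 654 and 2281 CPM.

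Lef1+ CD8 cells had 238 of 5297 genes past both conditions (4.49%), 100 higher (1.89%) and 138 lower (2.61%), or 77 and 178 with TMM scaling. Of the lower genes 64 (46.4%) were at least 5 times higher in macrophages, against 2.44% of all genes compared, and the macrophage markers summed to 675 and 1924 CPM. Lef1 had 189 CPM (120 to 284) and 292 (258 to 330), and Tcf7 420 and 328, so both sides carried RNA of the gene in the class name. The CD8 markers summed to 552 CPM in M and 1032 in EM3, and the NK markers to 511 and 300. In M the level of Gzmb, given below, was above that of Lef1. Kit, the stem cell factor receptor, had 346 and 23.5, and Ikzf2, which encodes Helios, 700 and 185. Mctp1 (74.1 and 1.12 CPM), Hist1h2be (57.7 and 3.36), Whrn (115 and 16.8) and Epas1 (502 and 107) were also higher. Cd4 had 0 UMIs in M and 118 in EM3, at least 5.34-fold lower against the floor (exact lower limit 4.28). Mmp19, Hspa1a, Hspa1b and H2-Eb1 were the other lowest ratios, with 24.7, 0, 24.7 and 74.1 CPM in M and 525, 294, 415 and 886 in EM3. Gzmk had 57.7 (23.2 to 119) and 250 (218 to 285), the reverse of its order in Gzmb+ cells, and Gzmb 577 and 229. Of 12 naive and memory genes 0 were higher and 1 lower with a median of 0.12.

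Cd44+ CD4 cells had 202 of 5117 genes past both conditions (3.95%), 86 higher (1.68%) and 116 lower (2.27%), or 63 and 136 with TMM scaling. Of the 116 lower genes 66 (56.9%) were at least 5 times higher in macrophages, against 2.48% of all genes compared, and the macrophage markers summed to 735 and 1830 CPM. Epas1 had 1420 CPM (1310 to 1537) and 481 (430 to 536), and Egln3 441 and 136. Il4, Il5 and Il13, the cytokines of type 2 helper cells, had 97.0, 926 and 1067 CPM in M and 16.3, 734 and 459 in EM3. In M 1 cell gave 57.1% of the Il4 and 71.4% of the Il13 UMIs, and Il5 did not pass 2-fold. The Il5 levels of both tumours exceeded the 107 to 288 of the others. Tnfsf4, the OX40 ligand, had 85.5 and 10.3 from 24 and 7 cells, and Mctp1 55.4 and 1.48 from 19 cells and 1 cell. Il3, Il2 and Egr3 each took at least 75.0% of their M UMIs from 1 cell. Hspa1a had 6.93 and 1081 CPM from 3 and 63 cells, and Hspa1b 16.2 and 1127. The other lowest ratios were Mmp19 (34.7 and 488 CPM), H2-Eb1 (122 and 831) and H2-Aa (189 and 1182). Foxp3, which should be low here, had 18.5 and 63.6.

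Foxp3+ CD4 cells had 179 of 4962 genes past both conditions (3.61%), 77 higher (1.55%) and 102 lower (2.06%). Of 18 regulatory genes 0 were higher and 1 lower, with a median of 0.07. Ctla4, the checkpoint receptor, had 1469 and 2371 CPM, Ikzf2 1570 and 1441, and Ccr8, a marker of tumour regulatory cells, 614 (523 to 716) and 520 (466 to 577). The lower one was Il10, with 2 and 48 UMIs, a ratio of 9.63 (2.52 to 81.8). Epas1 had 889 CPM (779 to 1010) and 243 (207 to 284), from 110 and 90 cells, and Egln3 994 and 435. Ccr7 had 2907 and 1356 CPM. Mctp1 had 24 UMIs from 21 cells in M and 1 in EM3, a ratio of 59.8 (9.76 to 2461). Scin, Gad1 and Hey1 had 71.5, 105 and 79.1 CPM in M and 9.06, 19.6 and 13.6 in EM3. The lowest were Inhba and Nefl, at 0 in M and at least 8.02-fold and 5.88-fold lower against the floor (exact lower limits 6.33 and 4.59), beside Ptgs2 with 15.1 and 128 CPM, Mmp19 with 60.2 and 485 and Thbs1 with 147 and 784. Of 16 interferon-gamma response genes 4 were lower and 0 higher. The macrophage markers summed to 987 CPM in M and 1775 in EM3, and 53 of the 102 lower genes (52.0%) were at least 5 times higher in macrophages of both libraries, against 2.42% of all genes compared. Inhba, Mmp19 and Thbs1 were among them, and what part macrophage RNA has in these differences was not tested. Higher Epas1 was thus measured in Lef1+ CD8, Cd44+ CD4 and Foxp3+ CD4 cells, not only in the mixed class.

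The Cd44- CD4 class, 43 and 62 cells, did not carry its label cleanly. Cd8a and Cd8b1 summed to 674 CPM in M and 534 in EM3, against 190 (94.8 to 340) and 403 (284 to 556) for Cd4, which was 1217 and 1336 in Cd44+ CD4 cells. Of 5926 genes 99 passed both conditions (1.67%), 44 higher (0.742%) and 55 lower (0.928%). Of the lower genes 25 (45.5%) were at least 5 times higher in macrophages, against 2.11% of all genes compared, the macrophage markers summed to 691 and 2115 CPM, and their part in these differences was not tested. Ccl5, a chemokine of CD8 memory and effector cells, had 3368 (2912 to 3875) and 774 (605 to 977), Cxcr3 380 and 87.2, and Pdcd1 449 and 87.2. Hmgxb3 was at 0 in EM3 and at least 4.75-fold higher in M against the floor (exact lower limit 3.13), from 9 cells, while 94.4% of the 18 Ifng UMIs in M came from 1 cell. Ikzf4, Sytl3 and Slc30a1 had 8, 7 and 7 UMIs in M and 0 in EM3. At the other end stood Cbarp, Basp1, Ccl6, Clec4n and Ms4a6d, with 0 UMIs in M and 20, 19, 17, 15 and 13 in EM3, and all of these but Cbarp were at least 5 times higher in macrophages.

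NK cells, 49 and 70, carried NK markers at 1333 and 1299 CPM beside T cell markers at 775 and 982. With intervals apart, 121 of 5628 genes differed (2.15%), 52 higher (0.924%) and 69 lower (1.23%). Ccr7 had 775 CPM (609 to 971) and 140 (84.5 to 219), and Gzmb 1271 and 421, with EM3 below the 852 to 1888 of the others. Gzmc had 4318 and 280, but 59.3% and 76.3% of these UMIs came from 1 cell on each side. Tbx21, the transcription factor T-bet, had 207 and 502 CPM. Eomes, its relative, did not pass, with 630 (482 to 809) and 790 (647 to 955), nor did Ncr1, an activating receptor, with 186 (110 to 294) and 118 (67.5 to 192). Hspa1b had 0 and 155 UMIs, at least 36.9-fold lower in M against the floor (exact lower limit 29.7), though 47.7% came from 1 cell. Hspa1a had 41.3 and 1211 CPM, and Mmp19 10.3 and 576. The other genes with the most extreme ratios rested on few UMIs. Cxcr5, Cx3cl1, Il4i1 and Cryaa had 11, 10, 10 and 8 UMIs in M from 5, 3, 1 and 4 cells and 0 in EM3, and Topors and Zfp652 each had 0 in M and 15 in EM3. The macrophage markers summed to 754 and 1536, and 24 of the 69 lower genes (34.8%) were at least 5 times higher in macrophages, against 1.78% of all genes compared. Granulocyte markers summed to 2944 CPM in M and 5522 in EM3, and the part of such RNA in these differences was not tested. Of 9 NK receptor genes 0 were higher and 1 lower.

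B cells, 42 and 93, had 86 of 5889 genes past both conditions (1.46%), 41 higher (0.696%) and 45 lower (0.764%), or 25 and 68 with TMM scaling. The B cell markers summed to 21057 and 19938 CPM. Of 9 B cell activation genes compared 0 passed both conditions either way. Ighm, the IgM heavy chain, had 12343 (11441 to 13296) and 11788 (11220 to 12377), and Cd79a, of the B cell receptor, 4037 and 3288. Il9r, a cytokine receptor, had 13 and 0 UMIs, at least 10.6-fold higher in M against the floor (exact lower limit 7.44), from 4 cells of which 1 gave 53.9%, and was at 0 on both sides in the Total libraries. Egln3 had 8 UMIs and 1, a ratio of 19.5 (2.62 to 866), and Stat5a 9 and 2. Polr3d and Pelo each had 5 UMIs in M and 0 in EM3. Saa3, an acute-phase gene and the lowest ratio, had 0 CPM in M and 372 in EM3, of which 94.1% came from 1 cell. Ptgs2, Inhba, Tgfbi and Parp14 had 0 UMIs in M and 24, 22, 20 and 20 in EM3. Granulocyte markers summed to 5744 and 10242 CPM in this class and macrophage markers to 765 and 1677. Of the 45 lower genes 9 (20%) were at least 5 times higher in macrophages, against 1.26% of all genes compared, and the part of such RNA in these differences was not tested. Of the 10 B cell genes with the most extreme ratios, 6 kept their direction in the Total libraries.

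Immediate-early and stress genes, which respond within minutes to hours to stimulation, heat or handling of cells, were looked at in every class. In macrophages 3 of 19 were lower in M and 0 higher (6 and 0 with TMM scaling), with a median of -0.52 that was -0.38 in the Total libraries. The 3 were Egr2 (20.3 and 52.9 CPM), Hspa1a (163 and 380) and Hspa1b (187 and 468). In dendritic cells 5 of 18 were lower and 0 higher, with a median of -0.46 that was 0.29 in the Total libraries. In NK cells 5 of 19 were lower with intervals apart and 0 higher, with a median of -0.89. T cells had 2 of 19 lower and 0 higher, with a median of 0.24. Granulocytes had 2 of 18 lower and 0 higher (median -0.16, and 0.24 in the Total libraries), and other myeloid cells 4 of 19 lower and 1 higher. B cells had 3 of 20 higher and 0 lower (1 and 1 with TMM scaling). In the 5 T cell subtypes 17 to 19 were compared, of which 3 or 4 were lower with intervals apart, and 0 to 3 higher. Of all genes compared 1.77% were lower in macrophages, 5.42% in dendritic cells, 1.23% in NK cells and 1.72% in T cells. In granulocytes 2.44% were lower, and in other myeloid cells 2.29% were lower and 0.885% higher. In B cells 0.764% were lower and 0.696% higher with intervals apart. In the T cell subtypes 0.928% to 3.19% were lower and 0.742% to 2.88% higher, also with intervals apart. Hspa1a and Hspa1b, which encode heat-shock proteins and may share counts, had the lower level in M in all 12 classes and subtypes. In the Total libraries they were lower in M in granulocytes, macrophages, dendritic cells, T cells and B cells as well. What part the state of the cells at capture has in the cytokine, chemokine and other differences was not tested.

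Across classes, the genes with the most extreme ratios were set beside the Total library of the same tumour, where the annotation has the class. For T cells this was the joint class of T and NK cells. The direction was the same for 20 of 20 genes in granulocytes and 20 of 20 in macrophages, of which 20 and 19 were also past 2-fold. It was the same for 8 of 10 in dendritic cells and 8 of 10 in T cells, with 6 and 5 past 2-fold. The CD45 and Total libraries come from the same mouse, so they do not repeat the tumour. They shared 1450 droplet barcodes in M and 1345 in EM3, and whether they repeat the capture cannot be told.

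**Figure D5:**
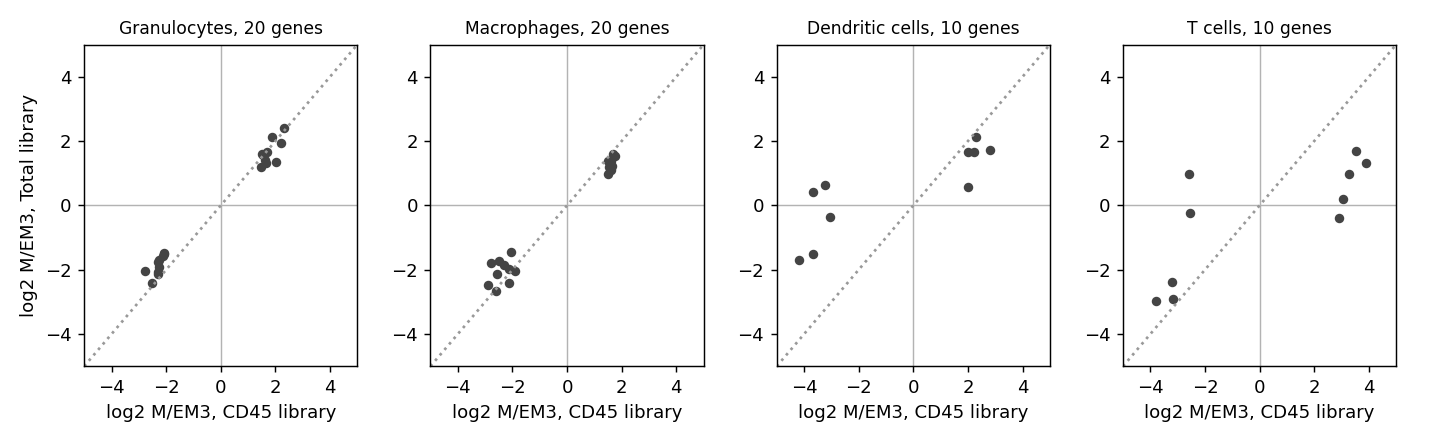
Log2 ratio of clone M over EM3 for the genes with the most extreme ratios in granulocytes (20), macrophages (20), dendritic cells (10) and T cells (10), in the CD45 libraries (horizontal) and in the Total libraries of the same tumours (vertical). The Total values for T cells are of T and NK cells together. Each point is 1 gene and the dotted line marks equal ratios; points of granulocytes and macrophages lie on the same side of 0 in both, while 2 of 10 in dendritic cells and 2 of 10 in T cells change sides.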

How the data were processed

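The authors deposited, for each library, a table of UMI counts per gene and cell, already filtered, and a table of cell annotations with the mitochondrial percent. For the CD45 libraries the annotations used were 2 levels of classes and a second label from the ImmGen reference. For the Total libraries a coarser annotation was used, in which T and NK cells are joined. Per the submitters' processing notes the reads were processed with Cell Ranger against mm10, with no version given. The labels' protocols name a fixed-RNA preparation kit and a reagent kit of another chemistry, which the sources used here do not reconcile. The CD45 tables list 18574 genes, 13 of them mitochondrial, and the deposited percent of mitochondrial UMIs could be recomputed from the counts within 1e-06.

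Doublets were called per library with an own script after the method of Scrublet (2 simulated pairs per cell, 2000 variable genes, 30 components, expected rate 6%). A single limit on the score, 0.321, the median of the 12 libraries' valleys and chosen after the valleys were seen, marked 1477 of 115612 cells (1.28%, from 0.515% to 1.93% a library), which were left out.

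Counts were summed per class and library and scaled to CPM over all UMIs of the class. No test was run, since the design has 1 tumour per clone. Shares carry exact Clopper-Pearson intervals, differences of shares intervals combined from these (MOVER), levels exact Poisson intervals, all at 95%. UMIs were treated as independent molecules. Ratios used a pseudocount of 10 CPM, a floor of 50 CPM in either library and a limit of 1 on the log2 scale. A fold against 0 UMIs was taken against 3 counts in that library.

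The genes named were the 10 highest and 10 lowest ratios in granulocytes and macrophages and the 5 highest and lowest in the other classes, among genes with intervals apart, and members of 32 lists with 396 genes. The members and lists were chosen with earlier results of these data known. 1 of these genes in granulocytes is not reported here. Other genes named were cell type markers or genes named so in another class. The limit of 5 times for macrophage genes and the promoter motif were chosen after values were seen. The alternatives are given in the closing section, those with the ImmGen label and without the top cell having been chosen after seeing the data. Software was Python 3.11.15, numpy 2.4.6, scipy 1.17.1, pandas 2.3.3 and scikit-learn 1.9.0, with TMM factors of edgeR 4.0.16 as an alternative. The script was tested on simulated data. No column of the deposited tables was left unmapped.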

Additional observations from a re-analysis of the deposited data

How the results depend on the processing

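Keeping doublets moved none of the 40 share differences, and requiring the ImmGen label of the same lineage moved none of 27. For dendritic cells a macrophage or monocyte label counted as the same lineage. This dropped only dendritic cells labelled neutrophil, 5 in M and 8 in EM3, and could hardly move that class. For other myeloid cells macrophage, monocyte, dendritic and neutrophil labels all counted. All 140 genes with the most extreme ratios kept their direction and stayed past 2-fold with doublets kept, with at least 650 genes per cell, with an ImmGen label of the same lineage, after centring on the median, with TMM scaling and with a pseudocount of 1 CPM. With the dendritic ImmGen label alone 9 of the 10 dendritic genes did, C4b being the exception at -0.21. A pseudocount of 50 CPM left 136 of them past 2-fold, and leaving out the top cell 133, with 2 reversed in T cells, Il3 at -0.0806 and Gzmc at -0.389.

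With at least 650 genes per cell the differences in shares of all cells, in percentage points of M minus EM3, were 6.42 for granulocytes, -0.604 for macrophages, 0.383 for other myeloid cells (reversed), -1.08 for dendritic cells, -4.58 for T cells, 0.304 for NK cells, 1.04 for CD4 T cells (reversed), 1.01 for Cd44+ CD4 cells and -0.153 for Foxp3+ cells. The 26 differences among cells other than granulocytes or within a parent class moved by less than their counting intervals. Restricting dendritic cells to those with the dendritic ImmGen label gave -0.425 of all cells and -0.0264 without granulocytes.

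In the Total libraries, as shares of immune cells, the differences were 29.4 for granulocytes, -26.3 for macrophages with other myeloid cells, -0.414 for dendritic cells, -2.86 for T and NK cells and 0.221 for B cells (reversed). Without granulocytes they were -7.20 for macrophages with other myeloid cells, 0.419 for dendritic cells and 5.97 for T and NK cells, all 3 reversed, and 0.810 for B cells. Named genes that reversed there were Ngp (0.42) and Thbs1 (0.64) in dendritic cells, and Il2 (-0.38) and Gzmf (0.97) in T cells. The Total values for T cells include NK cells. In B cells Saa3 (1.97), Inhba (0.14) and Parp14 (1.04) reversed. In dendritic cells 194 genes were past 2-fold in the Total libraries. The cause was not tested.

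Counts of genes past 2-fold, without the condition on intervals, depended on the pseudocount and floor, and their split into higher and lower on the scaling. TMM scaling moved the log2 ratios, before the pseudocount, by -0.25 in macrophages, -0.15 in other myeloid cells, -0.13 in Gzmb+ CD8 and -0.12 in B cells, and by under 0.1 in the other 8 classes. They were 128 in granulocytes, 117 in macrophages, 147 in other myeloid cells, 310 in dendritic cells, 138 in T cells, 1117 in NK cells, 1422 in B cells, 722 in Gzmb+ CD8, 496 in Lef1+ CD8, 208 in Cd44+ CD4, 1549 in Cd44- CD4 and 215 in Foxp3+ CD4 cells. In the same order a pseudocount of 50 CPM gave 51, 53, 55, 137, 66, 310, 533, 217, 137, 64, 665 and 56. A floor of 20 CPM gave 478 in dendritic, 1917 in NK, 1197 in Gzmb+ CD8, 932 in Lef1+ CD8, 364 in Cd44+ CD4, 2425 in Cd44- CD4 and 413 in Foxp3+ CD4 cells. No floor gave 543 in dendritic, 211 in T, 2683 in NK, 2882 in B, 1652 in Gzmb+ CD8, 1303 in Lef1+ CD8, 455 in Cd44+ CD4, 3714 in Cd44- CD4 and 532 in Foxp3+ CD4 cells, and a pseudocount of 1 CPM gave 318 in Cd44+ CD4 cells.

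No paired analysis was possible because each clone has 1 tumour and the labels carry no replicate numbers. No replicate was left out for the same reason. Depth limits NK cells, B cells and Cd44- CD4 cells most, where under 100 cells were summed on both sides. It also limits Gzmb+ CD8, Lef1+ CD8 and dendritic cells, whose M sides summed 63, 66 and 96 cells.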
